A study of Rattus norvegicus with 48 samples.

Results

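The cytosines described here are those of rat chromosome 12 that the authors listed as differentially methylated in sperm after an ancestral exposure to organochlorines. They were chosen by their listing: every row of the authors' 6 deposited lists with chromosome 12 as its chromosome was taken. The lists hold a hypermethylated and a hypomethylated set for each of the generations F1, F2 and F3. Chromosome 12 held 220 distinct cytosines (chromosome, position and strand) of 3998 in all, in 272 list entries of 4937. Their direction, size and listing are therefore what chose them, and all 3 are given as a description with no test.

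The assay was RRBS, reduced representation bisulfite sequencing, run on caudal epididymal sperm of Sprague-Dawley rats (48 samples). Founder (F0) females received by gavage either corn oil, as the control, or the POPs Arctic mixture, a blend of persistent organic pollutants, at 500 µg per kg of body weight, from before mating until parturition. Male descendants were sampled at 90 days of age, and the labels give 8 groups of 6, controls and organochlorines for every labelled generation from 1 to 4. Only the F0 females were dosed, so the dose separates lineages and not the sampled males. The deposited lists are named F1, F2 and F3 while the labels number generations 1 to 4, so F1, F2 and F3 are used here in the lists' sense, and the samples behind each list are not named. The sample titles carry a numeric code before the index, with 3 samples of each group on each of 2 codes. Labelled generations 1 and 2 share one pair of codes and 3 and 4 the other, so between those pairs code and generation cannot be told apart.

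In mammals, DNA methylation lies mostly on the cytosine of CpG, a cytosine followed by a guanine, which pairs with another CpG on the opposite strand. Maintenance methylation copies the mark to the new strand at replication, so both cytosines of one CpG usually carry a similar level. RRBS reads CpG-rich fragments cut by a restriction enzyme, after bisulfite has converted unmethylated cytosines, and so samples a small and clustered part of each chromosome. Germ cells erase and rewrite most of their methylation during development, which is why marks that recur in sperm over generations are of interest. When a pregnant female is dosed, her offspring and the germ cells they already carry are exposed with her.

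Each value is the authors' difference in methylation between a control and an exposed group, in percentage points, and all positions are on the build Rnor_5.0. The description deposited with the lists does not say which group was subtracted, so hypermethylated (above 0) and hypomethylated (below 0) are used in the lists' own sense. The lists hold no value of a single sample, so no replicate error can be attached to a difference and the depth is unknown. The cytosines that were covered but not listed were not analysed here, so a count reflects coverage as well as methylation. Cytosines at most 1000 bp apart were merged into a locus, since 1 or a few RRBS fragments can hold them, and loci at most 1 Mb apart, over the 3 generations pooled, into a block. Intervals of shares are 95% exact Clopper-Pearson intervals and cover counting error only. Those of medians are 95% intervals taken from the ranked values of the loci, and cover the spread between loci only.

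Chromosome 12 held the most loci per Mb of listed span among the 20 listed chromosomes. Its entries ran from position 344701 to 53396669, a span of 53.1 Mb, the shortest of the 20 listed chromosomes (57.3 to 287.6 Mb in the others). They formed 131 loci, of which 100 held a single cytosine. This came to 2.47 loci per Mb, against a median of 1.03 and a range of 0.58 to 2.21 over the other 19 chromosomes, with chromosome 20, the next shortest, at 2.21. By the sign of a locus's mean in each list, 79 of the 131 loci were hypermethylated, 48 hypomethylated and 4 opposite between generations. The hypomethylated locus at 30057378 to 30057470 also held a hypermethylated F1 cytosine.

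**Figure D1:**
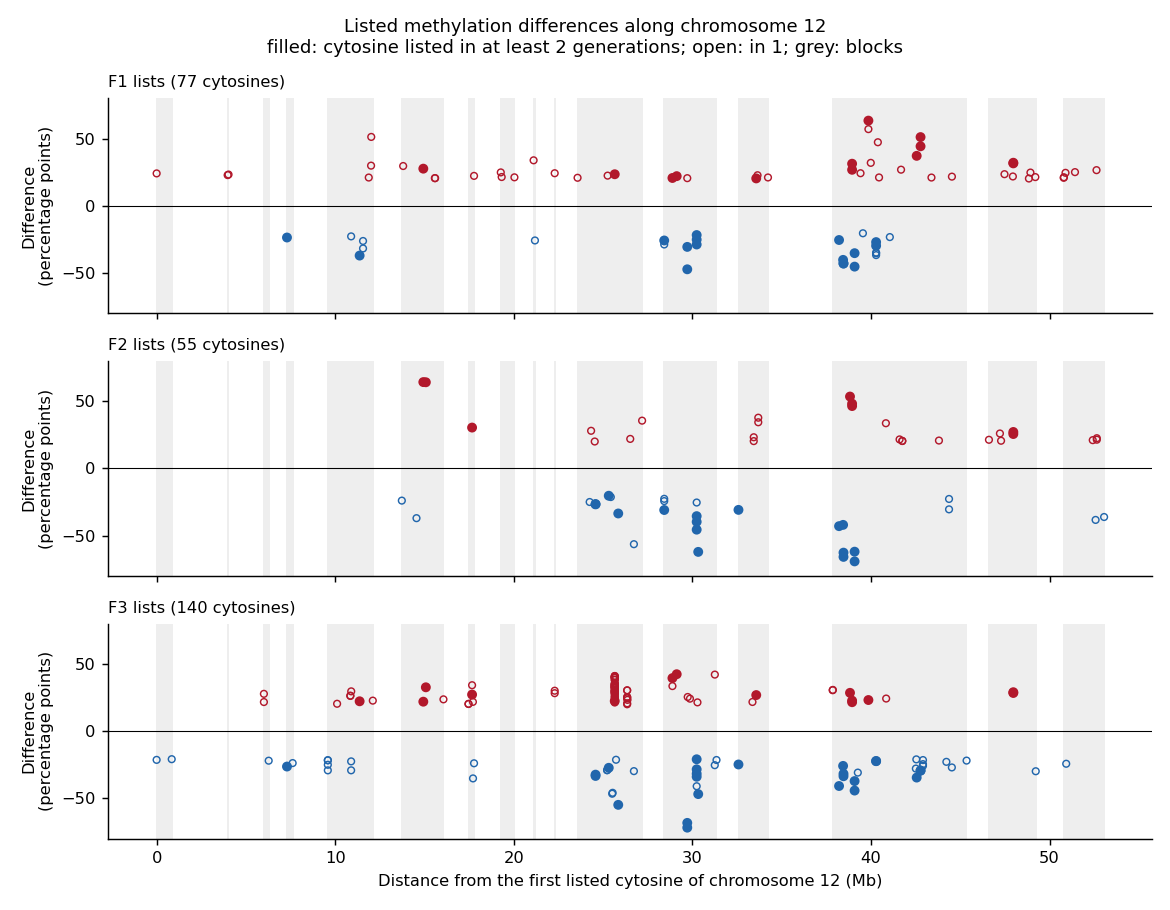
Differences (percentage points, y axis) of the listed cytosines along chromosome 12 (Mb from the first listed cytosine, x axis) in the F1, F2 and F3 lists. Red is hypermethylated, blue hypomethylated, filled points are cytosines listed in at least 2 generations, open points in 1, and grey bands are blocks; no point lies between -20 and 20 because the lists hold none, and no F2 point lies in the first 5 bands.

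The number of listed cytosines differed between generations. In the authors' deposited table, chromosome 12 held 77 cytosines in F1 (51 hypermethylated, 26 hypomethylated), 55 in F2 (27 and 28) and 140 in F3 (83 and 57). The hypermethylated share was 66.2% in F1, 49.1% in F2 and 59.3% in F3, beside 58.8%, 54.4% and 46.9% of all cytosines in those lists. Chromosome 12 supplied 4.47% of the F1 list, 4.51% of the F2 list and 7.01% of the F3 list. Its excess in F3 came with 1 locus that alone held 39 of the 140 entries (27.9%); without it the share of the F3 list was 5.16%. The members nearest the lists' minimum of 20 points stood at 20.2 in F1, 20.1 in F2 and 20.1 in F3, and the largest listed q-values were 0.00567, 0.00835 and 0.00785; cytosines beyond those limits were not analysed here.

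Counted by locus, chromosome 12 went from mostly hypermethylated in F1 to slightly more hypomethylated in F3. F1 had 61 loci, 46 of them hypermethylated (75.4%, interval 62.7 to 85.5). F2 had 40 loci, 21 hypermethylated (52.5%, interval 36.1 to 68.5), and F3 had 70 loci, 31 hypermethylated (44.3%, interval 32.4 to 56.7). The F1 share was the highest but one of 20 chromosomes, behind chromosome 13 at 80%, with 63.2% over the other 19 pooled. In F2 and F3 chromosome 12 ranked 13 and 14, against 55.5% and 46.8% over the others. The fall from F1 to F2 came to 22.9 points, the largest of the 20 chromosomes, though close to the next at 21.8 and with overlapping intervals on chromosome 12 itself. The fall from F1 to F3 was 31.1 points, rank 3, and 18 of the 20 chromosomes had a lower share in F3 than in F1. Loci formed from F1 cytosines of at least 25 points alone numbered 25, and 56.0% of them were hypermethylated. At that limit the share was 42.3% in F2 and 39.5% in F3, so both falls were smaller. The other chromosomes were not counted at that limit, so the ranks hold only for the lists as given. These differences from other chromosomes were not tested.

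The single cytosines gave another order. By cytosine, the F3 hypermethylated share of 59.3% was the highest of the 20 chromosomes, while by locus it was below that of the other 19 pooled. Without the 39 cytosines of that one locus, 44 of 101 F3 cytosines were hypermethylated (43.6%).

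**Figure D2:**
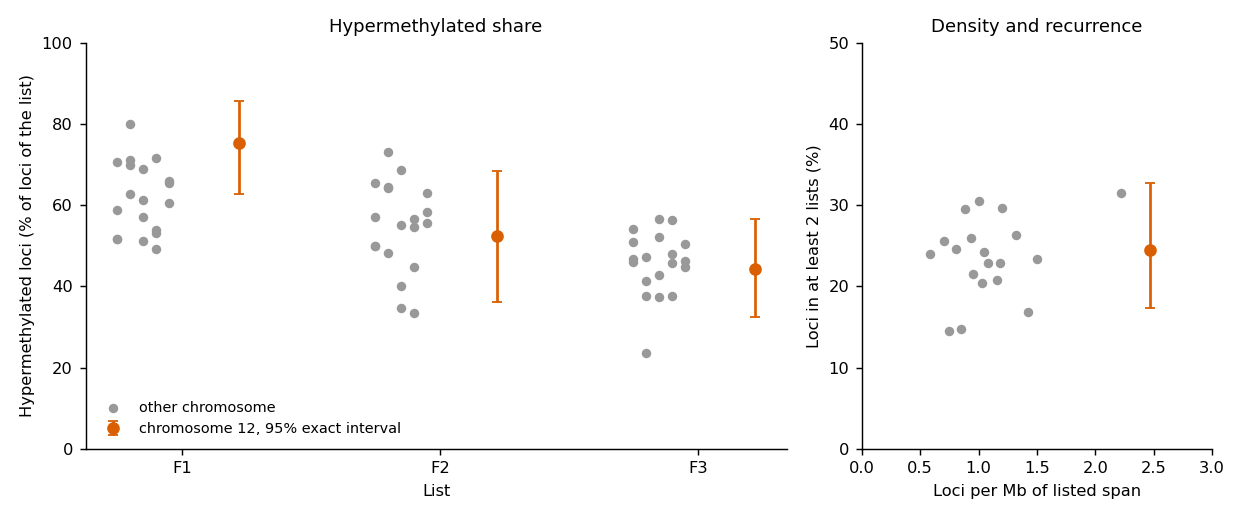
Left, hypermethylated share of loci (%, y axis) in each list for chromosome 12 (orange, with its 95% exact interval) and the other 19 chromosomes (grey points). Right, share of loci listed in at least 2 generations (%, y axis) against loci per Mb of listed span (x axis); chromosome 12 lies furthest right at 2.47 loci per Mb with a recurrent share of 24.4%, inside the range of the others.

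By the median of loci, differences on chromosome 12 were small in F1 and larger in F2, though F1 also had some of the larger single values. The median absolute difference of its loci was 24.0 points in F1 (interval of the median 22.7 to 25.5), 29.2 in F2 (24.9 to 36.1) and 26.0 in F3 (24.3 to 29.0). Over the other 19 chromosomes pooled it was 25.04, 26.3 and 26.0, so chromosome 12 ranked 18, 4 and 9. In F2 the hypomethylated loci had a median of 36.1 points and the hypermethylated ones 26.0. In F1, 38 of the 77 cytosines (49.4%) lay under 25 points, against 20 of 55 in F2 and 47 of 140 in F3. Differences of 40 points or more numbered 11 in F1 (14.3%, rank 5 of 20), 14 in F2 (25.5%, rank 3) and 15 in F3 (10.7%, rank 11), and the F1 maximum of 63.3 points ranked 2.

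Loci lay in 16 blocks along the chromosome, and directions were mixed in nearly every one of size. Of the 15 blocks with at least 2 loci, 12 held both directions (80%, against 316 of 425, 74.4%, on the other chromosomes). The 3 of one direction were small: blocks 2 and 8, at 4321429 to 4370798 and 19615243 to 20379243, held 2 and 3 hypermethylated loci of F1, and block 4, at 7643953 to 7961918, held 2 hypomethylated loci. All 9 blocks with at least 5 loci were mixed, which was near the 96.6% (144 of 149) of such blocks elsewhere. The mixed share fell with the distance that joins a block, to 70.8% at 500 kb and 54.5% at 100 kb. These 9 blocks held 116 of its 131 loci (88.5%), against 59.0% in such blocks on the other chromosomes pooled, a difference that was not tested. With a fixed joining distance this share depends on the loci per Mb. On chromosome 20, at 2.21 loci per Mb, the largest block alone held 79.5% of the loci. Along the chromosome the direction changed at 53 of 111 steps between neighbouring one-direction loci of a block. The steps run over the generations pooled, so neighbours can come from different lists. Such steps were not counted on other chromosomes.

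**Figure D3:**
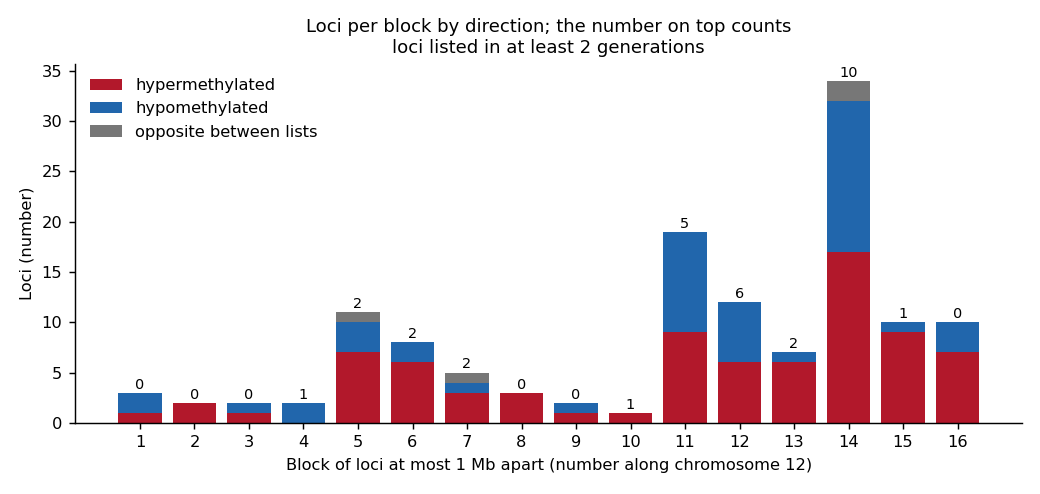
Loci (number, y axis) in each of the 16 blocks of chromosome 12, numbered along the chromosome (x axis), split into hypermethylated (red), hypomethylated (blue) and opposite between lists (grey). The number above a bar counts its loci listed in at least 2 generations; block 14 is the largest with 34 loci, 10 of them recurrent, and block 16 has 10 loci and none recurrent.

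The first 5 blocks, from 344701 to 12449134, held 20 loci with 28 cytosines, of F1 (10 loci) and F3 (13 loci) only. The first F2 entry of the chromosome was at 14074835, and the longest F2 gap after it, from 18008664 to 24591380, measured 6.58 Mb. Block 5 (9931179 to 12449134) was the largest of these with 11 loci, 7 hypermethylated, 3 hypomethylated and 1 opposite between F1 and F3. It held a tight group of 4 hypomethylated F3 cytosines at 9931179 to 9931266, all on the minus strand, with a mean of -24.3 points.

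Blocks 6 and 7 were mostly hypermethylated. Block 6 (14074835 to 16405414) had 8 loci, 6 of them hypermethylated, and block 7 (17807095 to 18118451) had 5, of which 3 were hypermethylated, 1 hypomethylated and 1 opposite between lists. With block 8 they held 8 F1 loci, all hypermethylated. Both hypomethylated loci of block 6 were of F2 and single cytosines, at -23.9 points (14074835) and -37.0 points (14895796) in the authors' deposited table.

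Blocks 11 and 12 held 9 of the 14 hypomethylated F2 loci and 13 of the 25 hypomethylated F3 loci that lay outside block 14, beside 13 of the 29 F2 loci and 22 of the 50 F3 loci of either direction there. Block 11 (23914971 to 27528263) had 19 loci, 9 hypermethylated and 10 hypomethylated, and neighbouring loci differed in direction at 10 of 18 steps. Its 3 F1 loci were all hypermethylated, while F2 had 4 hypermethylated and 6 hypomethylated loci and F3 had 3 and 8. The 3 hypermethylated F3 loci included 2 dense runs, so that by cytosine the block appeared strongly hypermethylated in F3. Block 12 (28766262 to 31694216) had 12 loci, 6 of each direction, and 6 of them were recurrent, the highest share (50%) of any block with at least 5 loci. Block 13 (32924421 to 34576838) had 6 hypermethylated loci and 1 hypomethylated.

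Block 14 (38197300 to 45696171) was the largest, with 34 loci over 7.50 Mb, 26.0% of the loci of the chromosome. It followed the widest gap between loci, 3.62 Mb. It had 17 hypermethylated loci, 15 hypomethylated and 2 opposite between lists. F1 had 11 hypermethylated and 7 hypomethylated loci there, F2 had 6 and 5, and F3 had 6 and 14. Of the 8 loci listed in all 3 generations, 5 lay in this block. Among the largest blocks of the 20 chromosomes it ranked 5 by number of loci, and that of chromosome 20 held 101.

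The end of the chromosome differed from block 14 in its directions. Block 15 (46949664 to 49569117) had 9 hypermethylated loci and 1 hypomethylated, and block 16 (51133123 to 53396669) had 7 and 3. Together they held 11 F1 loci, all hypermethylated, 8 F2 loci, 6 of them hypermethylated, and 3 F3 loci, 2 of them hypomethylated. The F1 loci there ran from 20.2 to 31.7 points, against the lists' minimum of 20. The 6 hypermethylated F2 loci ran from 20.6 to 26.4 points, and the 2 hypomethylated ones stood at -38.3 and -36.1. Over the whole chromosome 75.4% of F1 loci were hypermethylated, or 56.0% with cytosines of at least 25 points alone. Of the 15 hypomethylated F1 loci, 13 lay in blocks 5, 12 and 14, named for holding them, which also held 16 of the 46 hypermethylated ones. Block 16 was the one block of this size with no recurrent locus.

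Within one list, neighbouring loci at most 1 Mb apart had the same direction in 76 of 125 pairs (60.8%), against 55.9% on the other 19 chromosomes, rank 4. The F1 pairs did so most often, at 29 of 42 (69.0%), against 16 of 29 in F2 (55.2%) and 31 of 54 in F3 (57.4%). F1 neighbours more than 1 Mb apart matched about as often, in 13 of 18 pairs (72.2%).

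Over any 2 or more generations, the share of recurrent members was near that of all listed cytosines and loci. By cytosine, a larger share than on the other 19 chromosomes pooled was in all 3, and by locus the gap was smaller. Of the 220 cytosines, 181 were in 1 generation, 26 in 2 and 13 in 3, so that 39 (17.7%) recurred, beside 20.2% of all listed cytosines. The 13 in all 3 generations were 5.91% of the members, rank 4 of 20 (median of the others 2.30%), against 118 of 3778 on the other 19 chromosomes. By locus, 32 of 131 recurred (24.4%, interval 17.3 to 32.7), beside 24.1% of all loci. In all 3 generations were 8 of the 131 loci, against 127 of 2585 on the other 19 chromosomes. Those ranged from 1 of 95 on chromosome 13 to 14 of 131 on chromosome 8. The pair F1 and F3 shared 28 cytosines, 36.4% of the F1 entries and 20.0% of the F3 entries of the chromosome, against 21.5% and 19.01% on the other chromosomes. F2 and F3 shared 23, 41.8% of the F2 entries and 16.4% of the F3 entries, against 27.7% and 17.3% elsewhere. F1 and F2 shared 14, 18.2% and 25.5%, against 20.1% and 28.4%. Of those 14, at 9 loci, all but 1 were in F3 too, while on the other chromosomes pooled 212 of 330 were not. The other chromosomes ranged from 1 of 7 not in F3 on chromosome 18 to 6 of 6 on chromosome 15. None of these differences was tested. The 1 cytosine of F1 and F2 alone was 28766301, where the authors' deposited table gave -25.9 and -30.9 points.

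Recurrent loci mostly kept one direction by the sign of their means: 28 of 32 did (87.5%), against 76.0% on the other chromosomes pooled. This ranked 4 of 20, with chromosomes 17 and 19 at the same share. By cytosine it was 89.7% against 83.7%, rank 7, and neither difference was tested. By pattern, 8 loci were in all 3 lists (3 hypermethylated, 5 hypomethylated), 14 in F1 and F3 (6 and 4, with 4 opposite), 9 in F2 and F3 (3 and 6) and 1, hypomethylated, in F1 and F2. All 4 opposite loci thus joined F1 and F3 without F2, out of 22 loci shared by those lists. On the other 19 chromosomes 98 of the 318 loci shared by F1 and F3 were opposite. There the counts were 31 of 272 for F1 and F2 and 51 of 286 for F2 and F3. By position, 21 of the 32 recurrent loci (65.6%) lay in the 3 largest blocks, 11, 12 and 14, which held 65 of the 131 loci (49.6%).

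**Figure D4:**
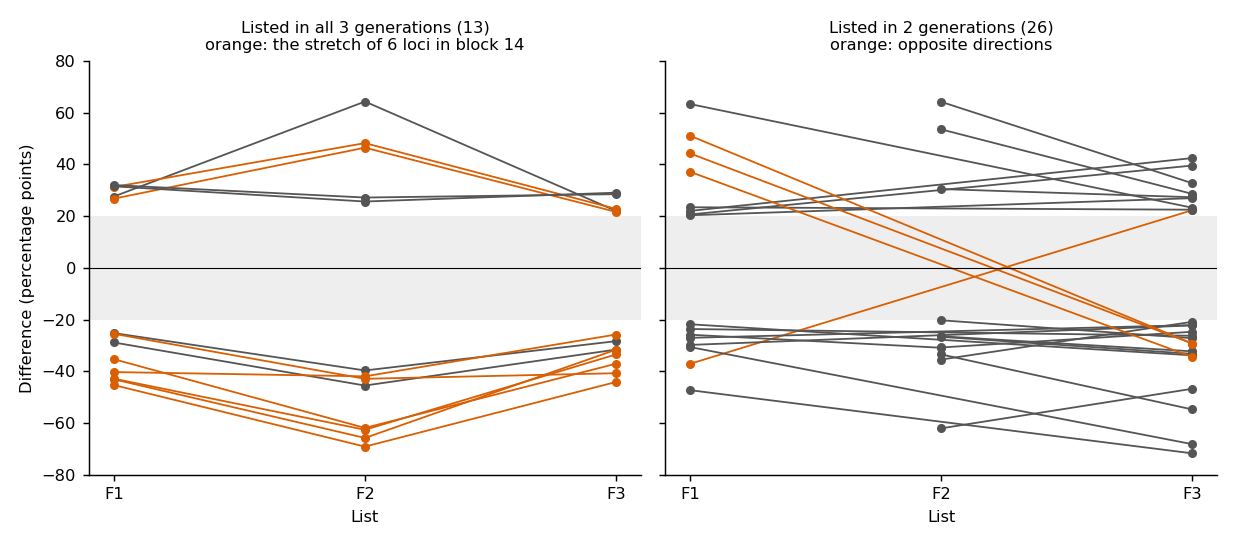
Differences (percentage points, y axis) of the 39 recurrent cytosines in the lists (x axis) that hold them, each line 1 cytosine; the grey band from -20 to 20 holds no listed value. Left, the 13 cytosines of all 3 lists, with those of the 6-locus stretch of block 14 in orange: 11 of 13 are furthest from 0 in F2. Right, the 26 of 2 lists, with the 4 of opposite direction in orange.

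The 13 cytosines of all 3 generations each kept their direction throughout, and 11 of them had their largest absolute difference in F2. On the other 19 chromosomes this was so for 41 of 118 such cytosines (34.7%). By locus the count was 7 of 8 on chromosome 12 against 48 of 127 (37.8%). Neighbouring cytosines of 1 locus can share reads, and the difference between chromosomes was not tested. The loci shared by F1 and F2 are these 8 and the one at 28766262 to 28766386, where F2 was not the larger; over the 9 the medians were 29.0 points in F1 and 42.9 in F2. Loci shared by F2 and F3 were larger in F3 in 5 of 17, with medians of 42.9 and 30.8, while F3 was larger in 12 of the 22 shared with F1.

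In block 14 a stretch of 0.870 Mb, from 38556483 to 39426529, was made up of recurrent loci alone. It was singled out after its values were seen and bounded by its first and last such locus; the 2 loci before it in the block, 38197300 and 38209884, were in F3 only. It held 6 loci with 9 cytosines, 5 of the loci in all 3 generations, 2 hypermethylated and 4 hypomethylated. The median absolute difference of its cytosines came to 37.8, 53.5 and 31.6 points over F1, F2 and F3, so these loci were large as well as recurrent.

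From the left, the authors' deposited table put the minus-strand cytosine 38556483 at -25.5 points (F1), -42.9 (F2) and -40.7 (F3). Next came 38782535, for which the authors' deposited table had -40.3, -41.9 and -25.8 in the same order. Each generation of the authors' deposited table listed both cytosines of the CpG at 38805252 and 38805253, F1 with -42.8 and -43.1, F2 with -62.6 and -65.8, and F3 with -33.5 and -31.6. These 3 loci thus had one direction in all 3 lists, and the pair of strands moved together in size.

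The direction then turned. Position 39169228 was absent from F1, and the authors' deposited table had it at 53.5 points (F2) and 28.6 (F3). Next to it in the authors' deposited table were 39286997, with 31.3, 48.2 and 22.8 points over the generations in order, and 39287082, with 26.7, 46.4 and 21.6. The stretch closed with another CpG that every generation of the authors' deposited table listed on both strands, 39426528 with -35.3, -61.9 and -37.1 and 39426529 with -45.3, -69.1 and -44.1. Within less than 1 Mb, then, hypomethylated, hypermethylated and again hypomethylated loci recurred, all but 39169228 over 3 generations.

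The other 3 loci of all 3 generations lay apart from each other. For 15277793 in block 6 the authors' deposited table had 27.6 points (F1), 64.3 (F2) and 22.0 (F3), the widest change among the 13. In block 12 the locus 30583915 to 30584092 held 7 cytosines, 3 listed in F1, 4 in F2 and 6 in F3, all hypomethylated. Of these the authors' deposited table repeated 2 in every generation, 30583940 with -25.2, -39.7 and -28.3 points and 30584092 with -28.8, -45.5 and -31.6. In block 15 the authors' deposited table had 31.5, 25.6 and 29.1 points for 48313539 and 32.0, 27.2 and 28.5 for 48313653. This last locus was the exception, with F2 the smallest of the 3 at both cytosines.

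A second stretch of block 14 held hypermethylated F1 and hypomethylated F3 cytosines side by side. It ran over 398 kb from 42856743 to 43255041, with 5 loci and 8 cytosines and no F2 entry, and it too was singled out after its values were seen. All 3 of its F1 cytosines were hypermethylated, with a median of 44.2 points, and all 8 of its F3 cytosines hypomethylated, with a median of 26.7 points in absolute value. The 3 F1 cytosines were also in the F3 list. Position 42903190 went from 37.1 points (F1) to -34.5 (F3) in the authors' deposited table. For the CpG at 43119429 and 43119430 the authors' deposited table had 51.1 and 44.2 points (F1) and, on both strands, -29.3 (F3).

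The fourth cytosine with opposite directions turned the other way. It was 11711885 in block 5, which the authors' deposited table had at -37.1 points (F1) and 22.3 (F3). In block 7 a locus was opposite without a shared cytosine, since the authors' deposited table paired 18118134 in F1 (22.2 points) with 18118451 in F3 (-23.8). Opposite directions also occurred inside 1 list of the authors' deposited table, where F1 had 30057378 at 20.5 points beside the CpG at 30057469 and 30057470 with -47.3 and -30.6. That CpG led the hypomethylated F3 cytosines of the chromosome, and the authors' deposited table put it at -71.7 and -68.2 points there.

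The longest run of listed cytosines of one direction in any list and on any chromosome lay in block 11. In the F3 list, 39 hypermethylated cytosines at 32 CpGs filled 662 bp from 25996483 to 25997144, at a mean of 32.1 points (SD 5.80 over cytosines, range 21.4 to 41.1). The next longest runs held 29 and 28 cytosines, both on chromosome 6. F2 had no entry there and F1 a single one, 25996573, which the authors' deposited table put at 23.4 points, against 22.5 for the same cytosine in F3. A difference of the other F1 and F2 cytosines of the run that stayed under the lists' limits would not appear, so absence from a list is not absence of a difference.

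Within the run the difference was lower at the left end. Split where gaps exceed 50 bp, the first 13 cytosines (25996483 to 25996573) averaged 27.5 points and the next 13 (25996685 to 25996849) averaged 33.5. The last 3 segments, with 5, 4 and 4 cytosines, averaged 35.0, 34.9 and 35.8. Plus-strand cytosines numbered 30 and averaged 33.0, and the 9 of the minus strand averaged 29.0 and were all in the first 2 segments. The last 3 segments, all on one strand, held listed values from 26.5 to 41.0. Their F3 q-values reached 0.000463, against 4.64e-05 in the first 2 segments, and the depth along the run is unknown.

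**Figure D5:**
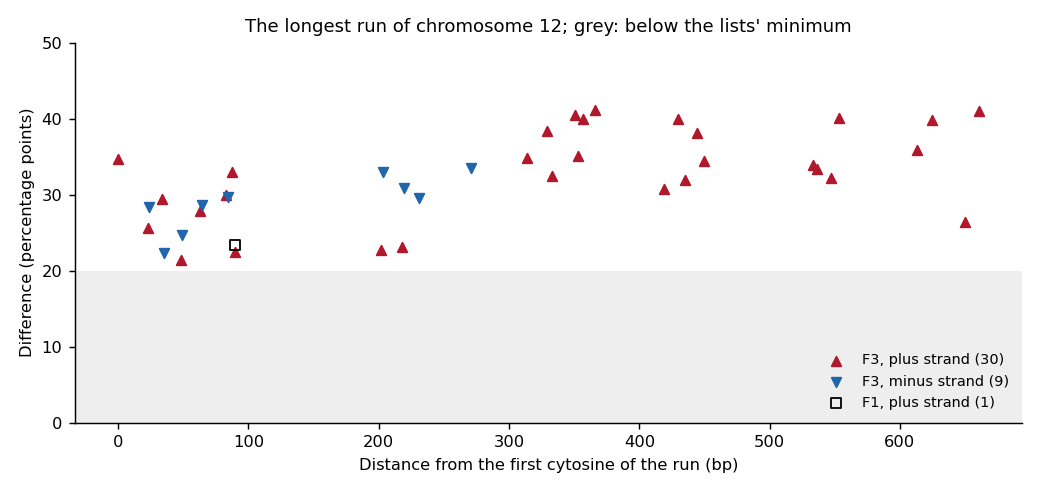
Differences (percentage points, y axis) of the cytosines of the longest run by distance from its first cytosine (bp, x axis). Triangles are F3 cytosines by strand (30 plus, 9 minus), the open square is the 1 F1 cytosine, and the grey band is below the lists' minimum; the minus-strand points end before the run's middle.

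Another 3 runs of at least 5 cytosines of one direction stood on the chromosome. In block 11, 7 hypermethylated F3 cytosines at 26692239 to 26692480 (242 bp) averaged 25.3 points (SD 4.11), and no other list had an entry there. The 6 hypomethylated F3 cytosines at 30583915 to 30584092 in block 12 averaged -31.0 points (SD 6.59), and this was the one run that was also listed in both other generations, at means of -25.3 in F1 (3 cytosines) and -36.5 in F2 (4). In block 14, 5 hypomethylated F1 cytosines within 64 bp at 40631252 to 40631315 averaged -32.8 points (SD 4.13). Of these, the authors' deposited table held 2 in F3 as well, 40631298 at -22.3 and 40631315 at -22.1 points, both on the minus strand. The F2 list had no run on chromosome 12.

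Cytosines with the largest differences were mostly recurrent ones. The 5 largest of each direction in each list gave 30 names for 25 distinct cytosines at 18 loci. Of the 25, 17 (68%) were in at least 2 lists, beside 17.7% of all members. A cytosine in at least 2 lists could be named from each of them, so the 17.7% is not a matched baseline for the 68%. Size and listing come from the same contrasts, and a large difference passes the lists' limits more easily, so the 68% is a description.

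In F1 the largest hypermethylation was the CpG at 40199696 and 40199697, with 63.3 and 57.0 points in the authors' deposited table; the first of these was in F3 too, at 23.2. The other F1 leaders upward were 12362600 (51.2), 43119429 (51.1) and 40729138 (47.2) in the authors' deposited table. All 5 F1 leaders downward recurred: 30057469 and 4 cytosines of the recurrent stretch of block 14, from -40.3 to -47.3 points. Every one of these 10 but 12362600 and 30057469 lay in block 14.

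In F2 the largest hypermethylated differences were a pair of single cytosines in block 6, 141920 bp apart. They were 15277793, described above, and 15419713, for which the authors' deposited table had 64.2 points (F2) and 32.7 (F3). They were followed by 3 cytosines of the recurrent stretch, 39169228, 39286997 and 39287082. Downward, the F2 leaders were both CpGs of that stretch listed on 2 strands, from -61.9 to -69.1 points, and 30670601 in block 12, which the authors' deposited table had at -62.0 (F2) and -46.7 (F3). All 10 F2 leaders were thus also in the F3 list.

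In F3 the upward leaders were smaller, from 40.4 to 42.4 points. They began in the authors' deposited table with 29465622 at 42.4 (22.0 in F1) and 31600892 at 42.2, the latter in no other list. The other 3 upward leaders belonged to the longest run. Downward, after the CpG at 30057469, the authors' deposited table had 26192779 at -54.7 points (-33.5 in F2), 30670601 at -46.7 and 25853064 at -46.5. The downward F3 leaders lay in blocks 11 and 12, and none in block 14.

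Where both cytosines of one CpG were listed in the same generation, they had the same direction every time. There were 33 such pairs, 8 in F1, 5 in F2 and 20 in F3, and 7 of them lay in the longest run. The difference between the strands had a median of 5.93 points and a 90th percentile of 9.67. The widest gap was at 30584085 and 30584086 in F3, where the authors' deposited table had -40.9 and -20.9 points. The remaining 206 of the 272 entries had no listed partner, which can mean that the other cytosine was not covered or was under a limit. On the other chromosomes 458 of 466 pairs had one direction, with a median gap of 4.83 points, so strand-to-strand gaps on chromosome 12 were of similar size. At both CpGs of the recurrent stretch the strands differed by at most 10.0 points, less than F2 differed from F1 or from F3 on either strand.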

How the data were processed

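The authors' deposited lists give, for each cytosine kept, a position, a strand, a difference in percentage points, a p-value and a q-value (false discovery rate). Per the description deposited with them, the authors kept cytosines with a false discovery rate under 1% and a difference of at least 20%. Per the submitters' processing notes the tools were methylKit 0.9.4, Bismark 0.14.5, Trim Galore 0.4.0, CASAVA, bedtools 2.17 and SAMtools 1.2, on Rnor_5.0. The coverage minimum, the model and the samples' depth are unknown here.

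Here, the rows of chromosome 12 were merged into loci and blocks, and counted beside those of the other 19 chromosomes, with pandas 2.3.3, numpy 2.4.6 and SciPy 1.17.1 under Python 3.11.15 (figures with matplotlib 3.10.9). A locus took the sign of its mean difference in a list. The merging was tested on simulated data. No test between groups or chromosomes was made, since the lists hold no sample values and listing chose the members. No annotation or sequence of this build was used.

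Cytosines were named by a rule: the 5 largest of each direction in each list, runs of at least 5 cytosines of one direction, cytosines listed in all 3 generations or in opposite directions, and blocks of at least 5 loci. The members and lists were chosen with earlier results of these data known. Alternatives varied the minimum difference, the q-value maximum, the merging and block distances and the unit counted.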

Additional observations from a re-analysis of the deposited data

How the results depend on the processing

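Of 72 alternatives run over 17 results, 57 left a count within 1.5 times the one reported, or a share or median within its 95% interval, and 15 did not; these are wide limits. With a minimum of 25 points the cytosines numbered 39 in F1, 35 in F2 and 93 in F3 and the loci 25, 26 and 43, and with 30 points the cytosines numbered 24, 28 and 56. At 25 points the hypermethylated share of F1 loci was 56.0%, against 75.4% as listed. The share of F2 loci was 42.3% against 52.5%, and that of F3 loci 39.5% against 44.3%. The F3 share by single cytosine was 59.3%, and 43.6% without the longest run, an alternative chosen after seeing the data. Blocks of at least 2 loci numbered 24 at a block distance of 500 kb (70.8% mixed), 33 at 100 kb (54.5%) and 3 at 2 Mb (100%), against 15 (80%) at 1 Mb. Recurrence was 17.7% by single cytosine, against 24.4% by locus. No paired analysis was possible because the lists hold no sample values. Depth, replicate spread and the set of covered cytosines are unknown here, so counts and sizes cannot be set against sampling error, and replicates could not be left out in turn.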

Other observations

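The strand of the listed cytosines was uneven on chromosome 12. Plus-strand cytosines made up 38.96% of its F1 entries (30 of 77) and 36.4% of its F2 entries (20 of 55), the lowest share of the 20 chromosomes in both lists, where the others ranged from 40.4% to 65.9% and from 39.5% to 70.0%. In F3 the share was 57.9% (81 of 140), rank 2, and 50.5% without the longest run. Of the 13 cytosines listed in all 3 generations, 9 were on the minus strand. Entries of one locus can share reads, coverage by strand was not analysed here, and no test was made.

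Chromosome 20, the chromosome nearest in span (57.3 Mb), had 127 loci, of which 31.5% recurred, and 101 of them lay in a single block of 12.1 Mb. The cytosines of all 3 generations there had their largest difference in F2 in 6 of 10, against 11 of 13 on chromosome 12. The listed p-value was 0 for 31 F1, 27 F2 and 38 F3 entries of chromosome 12, so the authors' p-values give no order among those.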
